A study of Mus musculus with 19 samples.

Results

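Leukemias driven by FLT3-ITD, an internal tandem duplication that keeps the receptor tyrosine kinase FLT3 active, were recovered from the thymus of some transplanted mice and from the bone marrow of others, and the 2 sites were compared. The comparison holds the 7 retroviral FLT3-ITD leukemias among the 17 libraries of the series, split by the labelled source into 4 from thymus and 3 from marrow, with Dnmt3a genotype as a covariate. All donors were C57BL/6 and Mx1-cre+, an allele whose Cre recombinase is expressed from the Mx1 promoter, itself an interferon-responsive promoter of haematopoietic and other cells. Donor marrow with Dnmt3a+/+ (WT-ITD) or Dnmt3a f/f (KO-ITD, where Cre removes the floxed de novo DNA methyltransferase gene) was transduced with the MSCV retrovirus FLT3-ITD-IRES-GFP. It was then injected into lethally irradiated recipients, and RNA was taken from sorted CD4+CD8+ cells of donor origin. The recipients keep their own thymic and marrow stroma. The thymus libraries were WT-ITD replicates 1 and 3 and KO-ITD replicates 3 and 4, and the marrow libraries were WT-ITD replicate 2 and KO-ITD replicates 1 and 2. Values per library are given below in that order. The 4 CD4+CD8+ thymocyte libraries carrying GFP alone (WT-GFP and KO-GFP, 2 each, all from thymus) and 3 pre-leukemic marrow libraries (ER-cre-, Dnmt3a f/f, heterozygous Flt3-ITD knock-in, no surface markers listed) served as background. Ages were not given, and the labels call the replicates biological without tying each to an animal, so the tests measure variation among these samples, which may be partly technical.

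The thymus is where marrow-derived progenitors become T cells: they commit under Notch signals from thymic epithelium, rearrange their receptor genes, pass the CD4+CD8+ double-positive stage, and leave after selection with the help of the sphingosine receptor S1PR1. Marrow normally holds few double-positive cells, and T cell leukemias can occupy both sites. A bulk library from a sorted population can also hold RNA of neighbouring cells, so the site of collection can appear both in the leukemic cells and in what accompanies them.

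The design was unbalanced in several respects. With Dnmt3a deleted, both thymus libraries belong to a second submission and both marrow libraries to the first, so tissue and submission cannot be told apart there. With Dnmt3a intact all libraries belong to the first submission, but the donor cells were Sca-1-enriched (replicate 1), ckit-enriched (replicate 2) or whole marrow (replicate 3), whereas all KO-ITD donors were Sca-1-enriched. WT-ITD replicate 2 is the only marrow library with Dnmt3a intact. Any fit without it takes the tissue value from the KO-ITD libraries alone, where tissue and submission cannot be told apart. Total counts were 7660541 to 20015543 per library. Dnmt3a was at 180, 183, 68.1 and 53 CPM (counts in 1e6, scaled for library composition) in the thymus libraries and at 238, 65.8 and 127 CPM in the marrow libraries, so every KO-ITD library lay below every WT-ITD library. Its count includes exons outside the deleted part and checks the genotype only in part. Xist, the RNA of the inactive X chromosome, was at 1233 CPM in WT-ITD replicate 3 and 2276 CPM in KO-ITD replicate 2 and at most 1.59 CPM in the other 5 leukemias, and the Y chromosome gene Ddx3y showed the reverse. Each tissue therefore held 1 Xist-expressing library, and without both no gene passed the test either. WT-ITD replicate 1 is labelled thymus, but its thymic epithelium, MHC class II and S1pr1 values, given below, were at or near those of marrow libraries. Whether its label is wrong was not tested. The label was kept, and every thymus value and the contrast with Dnmt3a intact (2 libraries against 1) rest on it in part. Without that library 0 genes passed (edgeR; 1712 higher and 392 lower at an unadjusted p below 0.05), and the list medians described below were -0.92 for Notch targets, -0.55 for MYC, -0.56 for sterol, 1.06 for interferon and 1.19 for mature thymocyte genes.

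The leukemias did not sort by tissue as whole profiles. The closest pair of all was WT-ITD replicate 1 from thymus and WT-ITD replicate 2 from marrow, with a Pearson correlation of 0.974 across genes, which are not independent replicates. The 2 marrow KO-ITD libraries followed at 0.962. Correlations ranged from 0.805 to 0.92 among the 6 thymus pairs, from 0.907 to 0.962 among the 3 marrow pairs and from 0.769 to 0.974 among the 12 pairs across tissues. KO-ITD replicate 4 stood furthest from the rest. On the first principal component, which held 52% of the variance, it was at -162.4 and WT-ITD replicate 2 at 128.6, and the thymus libraries spanned -162.4 to 73.1 against -3.3 to 128.6 for marrow. No 2 libraries of a group agreed within sampling noise (the smallest chi-square, divided by its degrees of freedom, was 72.43).

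**Figure D1:**
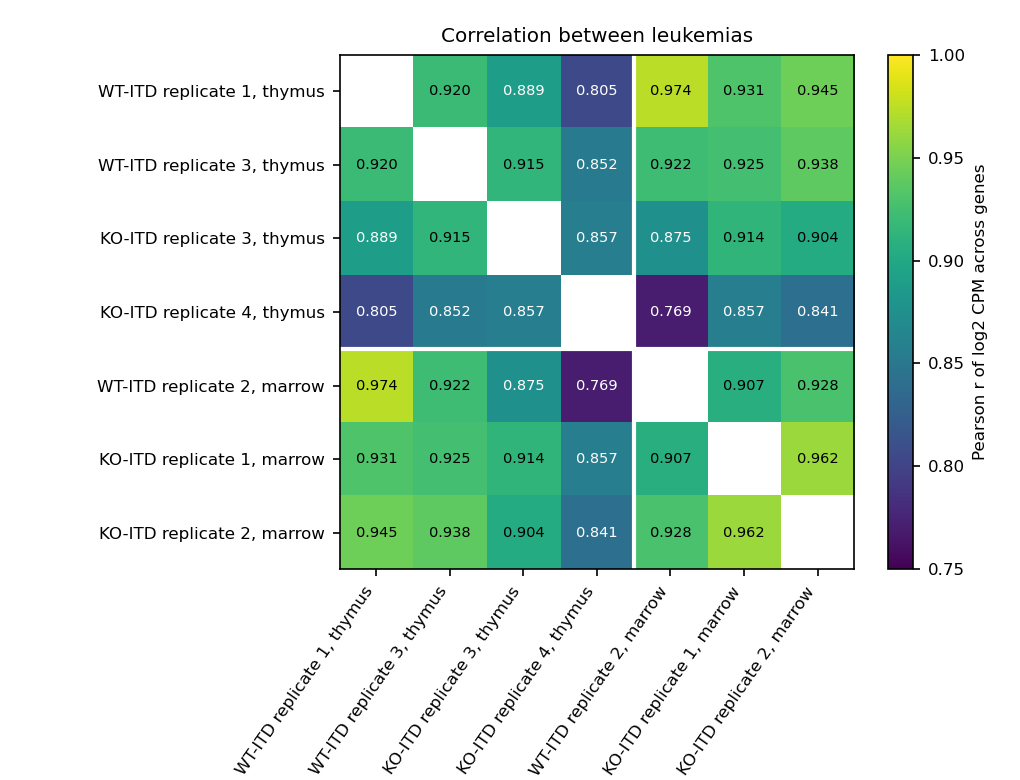
Pearson correlation of log2 CPM across genes for each pair of the 7 leukemias (rows and columns are libraries, the diagonal is blank, white lines separate the 4 thymus from the 3 marrow libraries). The highest value, 0.974, joins a thymus and a marrow library, and the lowest, 0.769, joins KO-ITD replicate 4 and WT-ITD replicate 2.

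The question was which genes differ between leukemias taken from the 2 sites once genotype is accounted for. Of 14304 genes tested with edgeR's quasi-likelihood test and Benjamini-Hochberg adjustment, 0 passed the threshold of 0.05 (0%), and the smallest adjusted p was 0.334. At an unadjusted p below 0.05 edgeR had 1570 genes higher in thymus (11%) and 533 lower (3.73%). DESeq2 called 811 genes (5.67%), 740 higher and 71 lower, limma voom called 0 (956 higher and 478 lower at an unadjusted p below 0.05), and a fit over all 17 libraries called 27 of 15508. The 17-library fit draws its spread in part from normal thymocytes and knock-in marrow, which may vary less or differ in kind. Without KO-ITD replicate 3 edgeR called 76 genes, all higher in thymus, and without WT-ITD replicate 3 it called 1. No gene named below therefore passed in the comparison as designed, and differences are given as values. Log2 fold changes are thymus minus marrow, with genotype in the model and standard error (SE), and their median over all genes was 0.06. Over all genes 7699 of 14304 were positive, the background for the sign counts of the lists below.

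The 4 thymus libraries lay above all 3 marrow libraries in 369 genes (2.58%) and below all of them in 395 (2.76%). Among those with at least 5 CPM on the higher side, 12 in each direction were named by the smallest unadjusted p. Capg, an actin filament capping protein (mm9 chromosome 6, 72494385 to 72512977, plus strand) measured 56.3, 61.4, 96.7 and 112 CPM in thymus and at 31.6, 26.6 and 28.6 CPM in marrow (log2 fold change 1.5, SE 0.27). The GFP thymocytes had 9.58 to 27.8 CPM, so the marrow leukemias were near the level of normal thymocytes and the thymus leukemias above it. Pre-leukemic marrow, at 74.8 to 111 CPM, lay within the range of the thymus leukemias. Cd44, the hyaluronan receptor of early progenitors and activated T cells (chromosome 2, 102651300 to 102741822, minus strand), was at 12.7, 11.5, 21.5 and 63.7 against 0.613, 8.53 and 5.66 CPM (3.18, SE 0.60). All thymus libraries were above marrow and KO-ITD replicate 4 was the highest, while GFP thymocytes, at 16.6 to 29.97 CPM, lay within the thymus range. Pre-leukemic marrow had 222 to 266 CPM of Cd44, above every retroviral leukemia. Cd44 passed in the fit over all 17 libraries (adjusted p = 0.0447) and without KO-ITD replicate 3 (adjusted p = 0.042), by edgeR in both cases. The first fit draws its spread in part from other kinds of samples. The second keeps KO-ITD replicate 4 as the only KO-ITD thymus library, so neither is a separate check.

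The other genes of the higher set include cell surface and lysosomal genes. Adam8, a membrane metalloprotease, was at 7.67 to 94.99 CPM in thymus and 1.23 to 4.96 CPM in marrow. Tcirg1, a subunit of the vacuolar proton pump, was at 79.1 to 156 against 58.7 to 65.5 CPM, and the autophagy gene Gabarapl1 at 15.9 to 51.2 against 7.38 to 8.41 CPM. Pre-leukemic marrow had 113 to 209 CPM of Gabarapl1 but 1.49 to 3.20 CPM of Adam8. Fam134b, an autophagy receptor of the endoplasmic reticulum, was at 3.00 to 14.6 against 0.735 to 1.91 CPM and passed in the 17-library fit (adjusted p = 0.0428 by edgeR), with the limit given above for that fit. Slfn1, a Schlafen family gene, was at 5.81, 16.6, 25.5 and 18.8 against 0.797, 5.09 and 4.62 CPM, and the GFP thymocytes at 13.9 to 41.0 CPM. Cpd, Cyp4f18, Ntng2 and Cyr61 completed the set with the interferon-induced gene Ifi27l2a, which is described with its list.

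The lower set had narrower margins and less spread. Dusp10, a phosphatase that inactivates the stress kinases JNK and p38 (chromosome 1, 185858340 to 185899515, plus strand), was at 60.4, 59.5, 61.9 and 61.6 CPM in thymus and 97.6, 121 and 102 CPM in marrow (log2 fold change -0.79, SE 0.17). The 4 thymus values differed by less than 3 CPM, or 60.9 ± 1.11 (SD, n = 4) against 107 ± 12.5 (n = 3), and GFP thymocytes were on the marrow side at 110 to 151 CPM. Ctps, the CTP synthase, was at 90.1, 66.8, 45.5 and 44.8 against 120, 104 and 112 CPM (-0.99, SE 0.22). Ppat, the first committed enzyme of purine synthesis, was at 45.7 to 75.9 against 99.2 to 143 CPM, and the lactate and pyruvate carrier Slc16a1 at 92.1 to 126 against 172 to 339 CPM (-1.18, SE 0.26). Dkc1, which modifies ribosomal RNA, was at 82.4 to 152 against 189 to 273 CPM, and Cdc25a, a phosphatase that starts S phase, at 41.5 to 93.7 against 99.9 to 119 CPM. In Ctps, Ppat, Dkc1 and Cdc25a both KO-ITD thymus libraries were below both WT-ITD thymus libraries, while for Slc16a1 KO-ITD replicate 4 (124 CPM) lay between them.

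**Figure D2:**
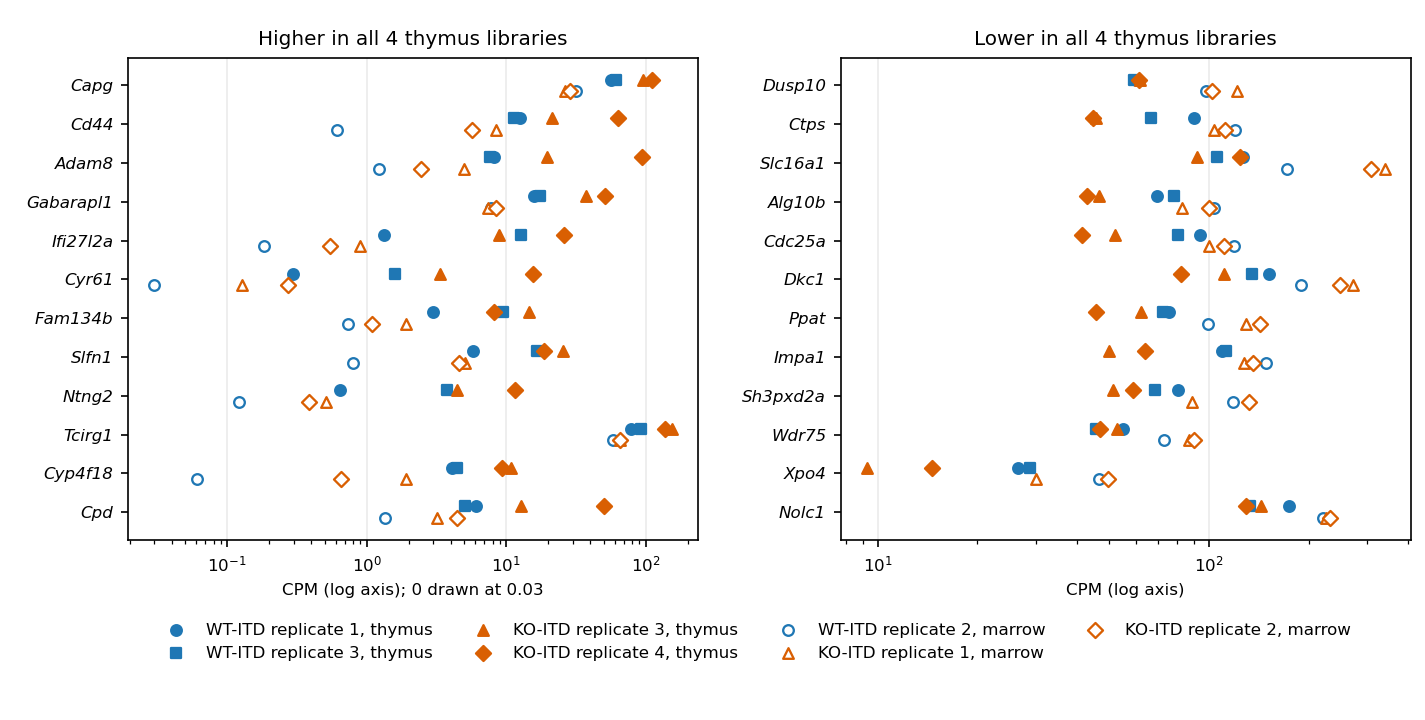
CPM on a log axis of the 12 genes higher and the 12 lower in all thymus libraries, 1 point per library (filled, thymus; open, marrow; blue, WT-ITD; orange, KO-ITD; 0 drawn at 0.03). Groups do not overlap by the rule that chose them; Dusp10 lies at 59.5 to 61.9 CPM in the 4 thymus libraries.

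The T cell programme was at similar levels on both sides. Of 15 T cell identity genes 0 passed, 7 had a positive log2 fold change and the median was -0.01, a sign that turned under RLE scaling and in 10 other alternatives. The level of the list (mean log2 CPM) was 8.55, 8.68, 8.40 and 7.65 in thymus and 8.69, 8.30 and 8.11 in marrow, with 8.94 to 9.08 in GFP thymocytes and at most 1.45 in pre-leukemic marrow, so every leukemia library carried its T cell label. Cd3e, a signalling chain of the T cell receptor, was at 311, 409, 431 and 344 against 383, 277 and 262 CPM (0.28, SE 0.22). Bcl11b and Tcf7, transcription factors of T cell commitment, had the smallest p of the list and were lower: Tcf7 at 1502, 1226, 714 and 371 against 1637, 1413 and 983 CPM (-0.80, SE 0.33), and Bcl11b at 406, 286, 156 and 184 against 638, 190 and 355 CPM (-0.75, SE 0.27).

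Of 24 genes of double-positive thymocytes, 9 had a positive value and the median was -0.22 (-0.01 with Dnmt3a intact and -0.29 with it deleted). The sorting markers were Cd4, at 486, 701, 307 and 403 against 676, 183 and 312 CPM (0.23, SE 0.30), and Cd8a, at 1181, 1612, 306 and 234 against 1408, 833 and 753 CPM (-0.97, SE 0.37). Cd8b1 was at 583, 876, 247 and 89.8 against 651, 365 and 349 CPM. In Cd8a and Cd8b1 the KO-ITD thymus libraries were lowest and the WT-ITD libraries highest whatever their tissue. Rag2, a subunit of the V(D)J recombinase, was at 166, 304, 11.2 and 39.4 against 195, 171 and 278 CPM (-2.01, SE 0.90), so that only the thymus libraries with deleted Dnmt3a were low. Themis, needed for thymocyte selection, was at 442, 506, 194 and 169 against 620, 285 and 437 CPM (-0.75, SE 0.24). Rag2 had opposite signs within the genotypes, 0.25 with Dnmt3a intact and -3.12 with it deleted, and the difference did not pass (interaction adjusted p = 0.956, edgeR).

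Genes of mature thymocytes and of egress were on the higher side in thymus. Of 24 tested, 20 had a positive value, and the median was 0.93, at 0.63 to 1.5 over all alternatives. An unadjusted p below 0.05 was found for 9 in that direction and 0 in the other (11% and 3.73% of all genes). Zbtb7b, the CD4 lineage factor ThPOK (chromosome 3, 89181568 to 89197125, minus strand), was at 2.61, 6.08, 37.6 and 17.2 against 0.429, 3.56 and 2.64 CPM (3.21, SE 0.55). Within each genotype the groups did not overlap, but WT-ITD replicate 1 lay below both marrow KO-ITD libraries. S1pr1, the receptor through which T cells leave the thymus (chromosome 3, 115413351 to 115417973, minus strand), was at 0.295, 18, 20.1 and 12.3 against 0.245, 0.891 and 0.385 CPM (4.88, SE 1.34). The other thymus libraries were within the 10.7 to 28.1 CPM of GFP thymocytes, but WT-ITD replicate 1 was at the marrow level. Gimap3, a GTPase of lymphocyte survival, was at 1.58, 39.1, 184 and 7.16 against 0.735, 4.71 and 0.824 CPM, and the lymph node homing receptor Ccr7 at 16.7, 72.5, 25.4 and 5.10 against 19.5, 2.16 and 2.14 CPM. In Ccr7 the high marrow library was WT-ITD replicate 2. The MHC class I gene H2-K1 was at 178, 881, 1124 and 584 against 153, 375 and 385 CPM, with WT-ITD replicate 1 again beside WT-ITD replicate 2. Levels of the whole list were 4.66, 5.69, 6.62 and 5.07 against 4.32, 4.85 and 4.27, and 5.97 to 6.58 in GFP thymocytes. Pre-leukemic marrow was at 4.53 to 4.94, within the range of the leukemias, so the list is not particular to thymocytes. It also had 13.6 to 23.9 CPM of S1pr1 and 9.24 to 12.8 CPM of Zbtb7b.

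Of 37 homing and adhesion receptors 28 had a positive value, with a median of 0.43. Unadjusted p was below 0.05 for 9 higher and 1 lower (11% and 3.73% of all genes). Cxcr4, the receptor that holds cells in marrow, was at 118, 244, 208 and 206 against 133, 234 and 219 CPM (0.10, SE 0.28), so its level overlapped almost entirely. Ccr9, the receptor for the thymic chemokine CCL25, was at 42.8, 139, 128 and 11.3 against 59.2, 10.7 and 10.9 CPM, far from the 1157 to 1375 CPM of GFP thymocytes in every leukemia. Itga5, the fibronectin receptor chain, was at 1.97, 15.3, 3.49 and 36.8 against 0.184, 1.91 and 2.25 CPM (3.98, SE 1.20). The 1 receptor lower at an unadjusted p below 0.05 was Ccr4, at 70.4, 112, 59.5 and 40.2 against 115, 98.4 and 135 CPM.

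Notch targets were on the lower side. Of 14 tested, 13 had a negative value, the median was -0.66 (-0.61 with Dnmt3a intact, -0.73 deleted) and stayed at -2.05 to -0.35 over all alternatives. At an unadjusted p below 0.05, 3 were lower and 0 higher (3.73% and 11% of all genes). These were Trib2, Bcl11b and Tcf7, and the last 2 belong to the T cell identity list as well and are described there. Trib2, a pseudokinase gene activated by Notch (chromosome 12, 15798533 to 15823591, minus strand), was at 247, 122, 16.5 and 56.4 against 303, 139 and 200 CPM (-1.64, SE 0.56). Il2ra, the interleukin-2 receptor alpha chain (chromosome 2, 11564419 to 11614821, plus strand), was at 2640, 1115, 629 and 1390 against 3411, 1709 and 2123 CPM (-0.89, SE 0.40). In both genes the groups separated within each genotype, while WT-ITD replicate 1 overlapped the marrow KO-ITD libraries. All 7 leukemias were far above the 44.9 to 68.8 CPM of GFP thymocytes for Il2ra. Notch1 itself was at 2436, 974, 382 and 1571 against 3053, 1339 and 2541 CPM, and Dtx1, a direct target, at 1682, 367, 58.4 and 1394 against 1805, 886 and 1072 CPM. In Notch1 and Dtx1 the low thymus libraries were WT-ITD replicate 3 and KO-ITD replicate 3, and WT-ITD replicate 1 and KO-ITD replicate 4 were within the marrow range. Hes1, a repressor induced by Notch, was at 21.6, 14.8, 18.2 and 54.7 against 21.7, 53.7 and 71.4 CPM, almost equal in WT-ITD replicates 1 and 2. List levels were 6.88, 6.09, 5.16 and 7.11 against 7.06, 6.97 and 7.24, above the 4.73 to 4.9 of GFP thymocytes in every leukemia. The 1 positive member was Hey1 (22.6 CPM in KO-ITD replicate 4, at most 1.02 CPM in the others), a Notch target that endothelial cells also express. The summed endothelial list was also highest in that library, and the part of such cells in the result was not tested.

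Of 17 genes of early T progenitors 13 had a positive value, with a median of 0.78 that was 4.26 with Dnmt3a intact and 0.19 with it deleted, and -0.28 without WT-ITD replicate 2. That marrow library had the lowest list level (-0.22, against 2.27 to 3.39 in the other 6), so the median rests on it. Without it the tissue value comes from the KO-ITD libraries alone, where tissue and submission cannot be told apart. Mef2c, a progenitor transcription factor, was at 0.837, 6.02, 12 and 7.16 against 0.184, 1.78 and 1.26 CPM, and Tyrobp, an adaptor of innate and early lymphoid cells, at 16.8, 19.0, 14.3 and 152 against 0.490, 23.7 and 14.7 CPM. HOX genes and cofactors were near 0: 7 of 22 passed the filter on low counts, with a median of 1.06.

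Growth genes had mostly negative values, and these were larger with Dnmt3a deleted, where tissue and submission cannot be told apart. All 22 genes of MYC response and ribosome biogenesis had a negative value, with a median of -0.48 (-0.16 with Dnmt3a intact, where 5 were positive, and -0.64 deleted), at -0.62 to -0.16 over all alternatives. At an unadjusted p below 0.05, 8 were lower (3.73% of all genes) and 0 higher, and 6 lay below all marrow libraries (2.76% of all genes). Nolc1, a nucleolar chaperone of ribosome assembly (chromosome 19, 46150353 to 46160020, plus strand), was at 174, 133, 143 and 129 against 222, 225 and 233 CPM, or 145 ± 20.4 (SD, n = 4) against 226 ± 5.66 (n = 3) (-0.65, SE 0.18). Nop58, a core protein of box C/D particles, was at 215, 156, 152 and 104 against 234, 365 and 307 CPM (-0.98, SE 0.29), and Nop2, a ribosomal RNA methyltransferase, at 118, 74.4, 64.3 and 62.4 against 128, 126 and 129 CPM (-0.77, SE 0.23). In all 3 genes WT-ITD replicate 1 was the thymus library nearest to marrow. Myc itself was at 124, 168, 133 and 190 against 152, 268 and 283 CPM (-0.48), with WT-ITD replicate 2 inside the thymus range. GFP thymocytes had a list level of 6.26 to 6.66, the thymus leukemias 7.27, 6.86, 7.19 and 6.67, and the marrow leukemias 7.30, 7.71 and 7.60.

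All 34 genes of S phase and mitosis also had a negative value (median -0.58), but the medians within genotypes had opposite signs, 0.11 with Dnmt3a intact (23 positive) and -1.08 with it deleted (1 positive), a difference not tested for the list. The median was also 0.11 in the fits that adjust for or are restricted to 1 submission. Those fits take the tissue value from the WT-ITD libraries alone, so they repeat the contrast with Dnmt3a intact and are no separate check. KO-ITD replicate 4 had a list level of 5.09, against 6.56 to 7.50 in the other 6, and without it the median was -0.12. Mcm2, a subunit of the replicative helicase, was at 288, 330, 247 and 137 against 360, 456 and 442 CPM (-0.84, SE 0.30), and the transcription factor E2f1 at 50.9, 44.2, 40.3 and 13.3 against 65.5, 57.3 and 54.0 CPM. Both were below marrow in all thymus libraries. The proliferation marker Mki67 was at 320, 695, 395 and 136 against 494, 353 and 909 CPM and overlapped widely.

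Sterol and fatty acid synthesis genes resembled the MYC list in sign. Of 19 tested, 16 had a negative value and the median was -0.54 (-0.65 with Dnmt3a intact, -0.44 deleted, and -0.75 to -0.35 over all alternatives). Unadjusted p was below 0.05 for 6 lower and 1 higher (3.73% and 11% of all genes). Separation within both genotypes was found in 9 lower members and 1 higher, against 9.73% and 11% of all genes. Idi1, an isomerase of the mevalonate pathway (chromosome 13, 8884852 to 8891642, plus strand), was at 38.6, 20.1, 18.3 and 8.25 against 45.7, 65.0 and 54.2 CPM (-1.59, SE 0.47), all thymus values below marrow. Acaca, the acetyl-CoA carboxylase of fatty acid synthesis, was at 113, 84.0, 40.7 and 55.7 against 152, 73.6 and 135 CPM (-0.91, SE 0.29). Its groups were separated within each genotype but overlapped across them. The higher member was Scd1, a desaturase that adipocytes and macrophages also express, at 1.53, 30.3, 69.5 and 431 against 0.0613, 5.47 and 2.31 CPM. The adipocyte hormone gene Adipoq was highest in the same library, KO-ITD replicate 4 (33.9 CPM, against at most 2.04 CPM in the others), and the part of such cells was not tested. Glycolysis genes showed no common sign (6 of 18 positive, median -0.11). Slc16a3, a lactate exporter, was at 5.02, 1.60, 15.6 and 20.3 against 1.1, 3.44 and 1.43 CPM, and Aldoa, an aldolase, at 220, 194, 372 and 348 against 186, 174 and 238 CPM.

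**Figure D3:**
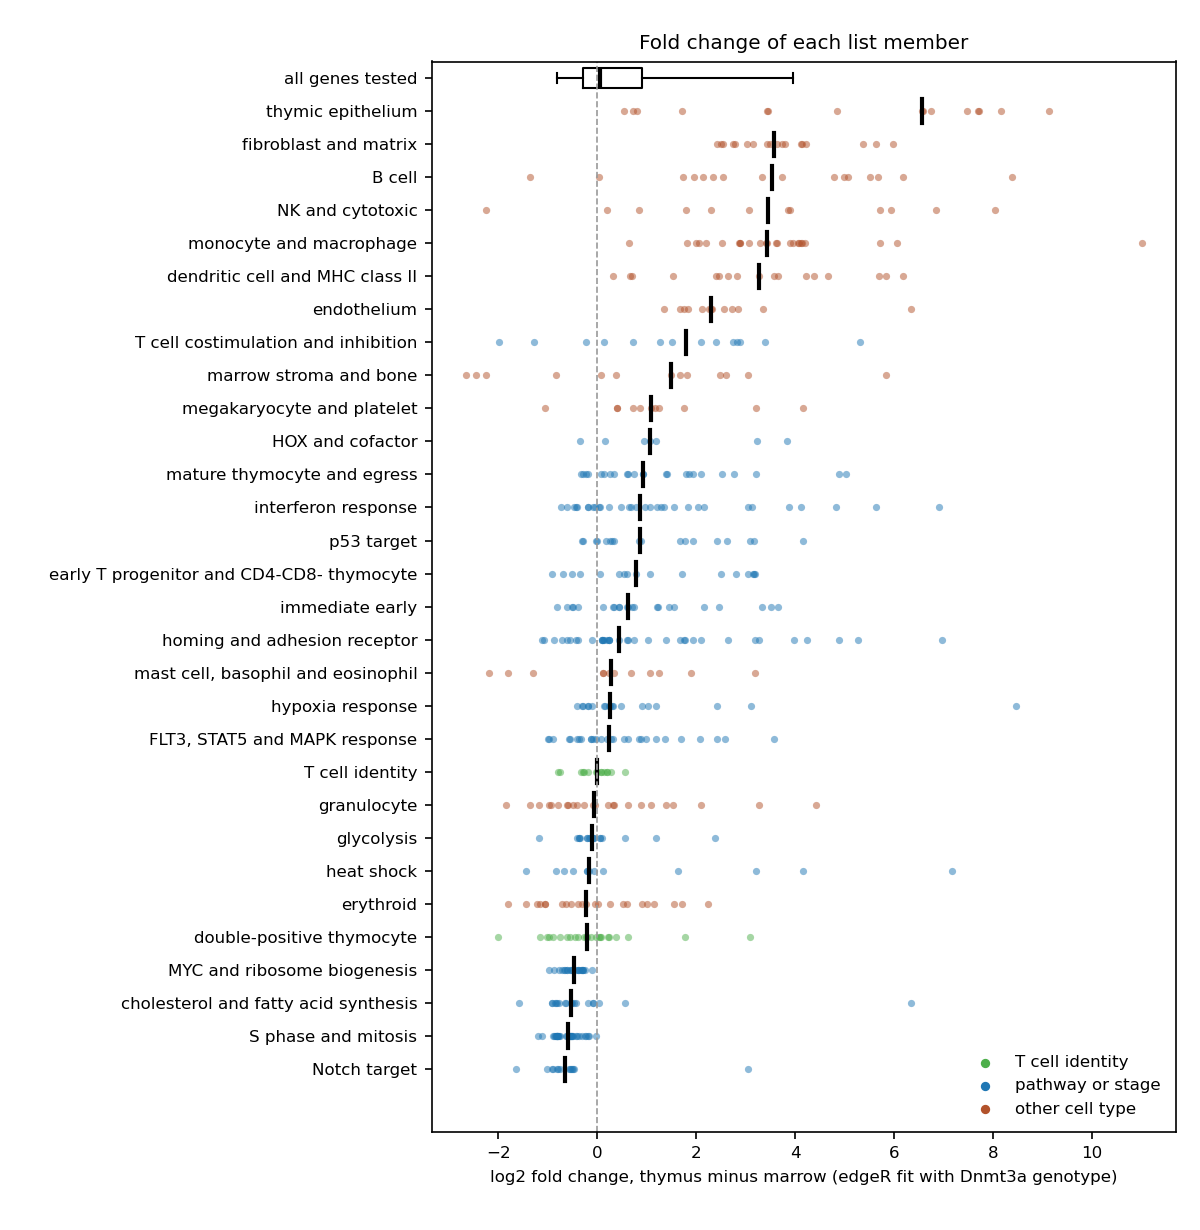
Log2 fold change, thymus minus marrow, of each tested member of the gene lists (points; vertical bars, list medians; box for all 14304 genes, quartiles with whiskers at the 5th and 95th percentiles). Medians run from -0.66 for Notch targets to 3.56 for fibroblast and matrix genes and 6.56 for thymic epithelium (3.88 with bounds or count ratios), where 8 of 15 members had 3 or fewer marrow counts, so that their fitted values are no bounds.

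Interferon response genes were higher in thymus in part. Of 32 tested, 23 had a positive value and the median was 0.87 (1.00 with Dnmt3a intact, 0.59 deleted, and 0.31 to 1.06 over all alternatives). Unadjusted p was below 0.05 for 9 higher and 1 lower (11% and 3.73% of all genes). The thymus libraries lay above all marrow libraries in 8 members and below in 1 (2.58% and 2.76% of all genes). Ifi27l2a (chromosome 12, 104680377 to 104681890, minus strand) was at 1.33, 12.8, 8.90 and 25.8 against 0.184, 0.891 and 0.550 CPM (4.83, SE 1.01). Mx1, an antiviral GTPase (chromosome 16, 97668642 to 97684513, minus strand), was at 0.148, 2.64, 2.29 and 7.76 against 0, 0 and 0.055 CPM, that is 129 counts in thymus and 1 in marrow (count ratio 107, 95% exact binomial interval 18.9 to 4262, counting error only). The GFP thymocytes, at 2.67 to 6.43 CPM for Mx1 and 10.2 to 21.6 CPM for Ifi27l2a, were at the level of the higher thymus leukemias. Irf7, the regulator of interferon genes, was at 19.6, 36.9, 22.4 and 54.1 against 13.5, 18.1 and 10.6 CPM, and the sensor Oasl2 at 1.62, 13.3, 2.41 and 14.2 against 0.123, 1.15 and 0.934 CPM. In each of these 4 genes WT-ITD replicate 1 was the lowest thymus library. The signalling gene Irf9 (41.7, 69.5, 19.4 and 32.9 against 43.6, 31.4 and 34.3 CPM) overlapped.

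Signalling lists were mixed. Of 28 genes downstream of FLT3, STAT5 or MAPK, 16 had a positive value and the median was 0.23, which turned sign under limma voom (-0.07), without WT-ITD replicate 2 (-0.20) and without both that library and KO-ITD replicate 4 (-0.06). Both fits without WT-ITD replicate 2 take the tissue value from the KO-ITD libraries alone. Flt3 was at 2.76, 7.49, 3.37 and 0.485 against 1.53, 2.16 and 1.26 CPM (0.78, SE 0.91). How far retroviral reads enter that count is not known from the sources used here. The STAT5-induced gene Cish was at 214, 178, 294 and 262 against 227, 165 and 240 CPM and overlapped, and Socs2, also induced by STAT5, was at 45.9, 140, 127 and 54.8 against 44.7, 26.9 and 34.3 CPM, just without overlap. MAPK feedback genes split: Etv5 was at 1.58, 2.76, 17.8 and 27.1 against 0.981, 4.58 and 2.47 CPM (2.07, SE 0.58), and Dusp5, a nuclear phosphatase of ERK, at 34.8, 21.1, 9.14 and 7.04 against 45.3, 17.9 and 18.6 CPM (-0.98, SE 0.31). Spry2 was at most 2.67 CPM in the 7 leukemias.

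Of 23 immediate early genes 18 were positive (median 0.63; 0.20 with Dnmt3a intact and 1.34 deleted). Junb, an AP-1 subunit, was at 36.8, 45.9, 102 and 79.3 against 32.6, 20.7 and 28.9 CPM (1.23, SE 0.37) without overlap, and passed in the 17-library fit (adjusted p = 0.0476 by edgeR), with the limit given above for that fit. Fosl2, another AP-1 subunit, was at 2.86, 10.5, 65.8 and 36.3 against 1.29, 3.18 and 3.24 CPM (3.33, SE 0.65), and Egr1 at 7.63, 6.63, 4.09 and 25.0 against 2.82, 2.55 and 1.87 CPM. The 2 libraries highest in Junb and Fosl2 are those of the second submission. Fos itself went the other way with Dnmt3a intact, at 60.5 CPM in WT-ITD replicate 2 and 9.80 and 0.982 CPM in its thymus counterparts.

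Stress lists had medians of different size and sign. Of 19 hypoxia genes 13 were positive (median 0.25), with P4ha2, a collagen prolyl hydroxylase, at 0.394, 0.921, 20.4 and 13.1 against 0.0613, 3.31 and 0.824 CPM and the mitophagy receptor Bnip3 at 7.53, 6.94, 23.1 and 86.7 against 4.47, 4.84 and 3.41 CPM. Adm, the peptide adrenomedullin, had 102 counts in thymus and 0 in marrow, at least 28.2-fold higher if the marrow group is set at a floor of 3 counts in all. Among 13 heat shock genes 5 were positive and the median was -0.16 (0.63 with Dnmt3a intact, all 13 positive, and -0.39 deleted). It turned sign in the first submission alone (0.64), with submission added (0.63) and without KO-ITD replicate 4 (0.05). Both submission fits take the tissue value from the WT-ITD libraries alone and repeat the contrast with Dnmt3a intact. Hspb1, Hspa1a and Hspa1b were at most 1.59 CPM in marrow and up to 31.5, 14.2 and 14.8 CPM in thymus. WT-ITD replicate 1, at 0.0492, 0.246 and 0.246 CPM, lay within the marrow range for each of them. Of 18 p53 targets 14 were positive (median 0.86, 0.37 to 1.45 over all alternatives). Cdkn1a, the cyclin-dependent kinase inhibitor p21, was at 5.71, 22.7, 74.6 and 87.6 against 0.797, 16.7 and 35.8 CPM (2.42, SE 0.75), Plk2 at 0.689, 1.90, 3.13 and 19.0 against 0, 1.02 and 0.824 CPM and Perp at 0.591, 3.13, 1.92 and 8.49 against 0.123, 1.15 and 0.495 CPM. Each separated within both genotypes, with WT-ITD replicate 1 below at least 1 marrow KO-ITD library. Of 14 costimulatory and inhibitory receptors 11 were positive (median 1.80, and 0.32 without KO-ITD replicate 3). Btla was at 4.28, 15.2, 54.7 and 9.58 against 3.06, 0.891 and 1.37 CPM (3.39, SE 1.04), Lag3 at 1.13, 12.5, 3.37 and 5.70 against 0.735, 0.255 and 1.32 CPM, and Tigit had 44 counts in thymus and 1 in marrow. For Btla the 15.2 and 54.7 CPM of the replicates 3 bracketed the 18.5 to 27.4 CPM of GFP thymocytes.

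Levels of markers of other cells varied widely between libraries. In bulk samples fewer cells of a type and less RNA per cell cannot be told apart. For thymic epithelium 15 of 18 members passed the filter on low counts, and 8 of the 15 had 3 or fewer marrow counts (6 had 0), so they entered through the thymus libraries and their sign was fixed by that filter. Krt8, a keratin of epithelial cells (chromosome 15, 101827142 to 101834773, minus strand), was at 0, 14.4, 3.61 and 15.3 against 0, 0 and 0.055 CPM (count ratio 324, 95% exact interval 57.8 to 12819, counting error only). Krt5, a keratin of the medulla, had 224 counts in thymus and 0 in marrow, at least 62.0-fold higher, and Cldn3 59 and 0, at least 16.3-fold higher. Prss16, a protease of the cortex, was at 0.246, 0.552, 7.34 and 2.18 against 0, 0.255 and 0.110 CPM. The defining factors were barely seen: Foxn1 had 9 counts in the 4 thymus libraries and 0 in marrow, and Psmb11 was at most 0.184 CPM in any leukemia. WT-ITD replicate 1, although labelled thymus, had 0 counts of Krt5, Krt8 and Krt14 and a list level of -1.51. That lies with the marrow libraries (-1.58, -1.30 and -1.36) and apart from the other thymus leukemias (1.11, 0.63 and 1.90), and the GFP thymocytes were at -1.21 to -0.76.

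WT-ITD replicate 1 was also the lowest thymus library for MHC class II and dendritic cell genes, with a list level of 0.90 against 4.23, 3.06 and 2.96 in the others and -0.55, 1.19 and 0.87 in marrow. All 17 were positive (median 3.26), 9 at an unadjusted p below 0.05 (higher in 11% of all genes). H2-Aa (chromosome 17, 34419696 to 34424716, minus strand) was at 3.05, 254, 166 and 62.0 against 0.245, 3.05 and 3.24 CPM (6.17, SE 1.65), and H2-Eb1 at 3.40, 245, 108 and 45.7 against 0.429, 2.93 and 2.47 CPM (5.83, SE 1.57). GFP thymocytes had 50.1 to 67.8 CPM of H2-Aa and 47.8 to 62.1 CPM of H2-Eb1. WT-ITD replicate 1 was near the marrow libraries, KO-ITD replicate 4 near the GFP thymocytes and the other thymus leukemias above them. B cell markers, of which 15 of 16 were positive (median 3.54), had list levels of -0.26, 2.64, 3.26 and 1.19 against -1.27, 0.19 and -0.27. Of the NK and cytotoxic list 12 of 16 passed the filter, 7 of them with 3 or fewer marrow counts, so their signs are not counted. The level over all 16 was -0.95, 0.89, 1.57 and 0.30 against -1.14, -0.22 and -0.93. The chemokine Ccl5 was at 0.148, 8.84, 18.9 and 5.34 against 0, 0.255 and 0.055 CPM. GFP thymocytes, at 4.34 to 14.1 CPM, lay within the range of the thymus leukemias for Ccl5.

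Stromal and phagocyte genes rested more on 1 library. All 18 fibroblast and matrix genes were positive, 16 at an unadjusted p below 0.05 (higher in 11% of all genes), with a median of 3.56. Mgp was at 3.25, 4.97, 17.1 and 135 against 0.245, 8.27 and 4.51 CPM, fibronectin (Fn1) at 5.42, 11.6, 33.7 and 226 against 0.245, 15.1 and 2.69 CPM, and Pdgfrb at 0.689, 0.859, 340 and 95.6 against 0.184, 28.3 and 18.7 CPM. All 25 monocyte and macrophage genes were positive (median 3.44, 18 at an unadjusted p below 0.05, against 11% of all genes). But list levels were 1.74, 3.04, 3.03 and 7.34 against -0.50, 3.45 and 2.50, so that only KO-ITD replicate 4 stood above marrow. Marco, a scavenger receptor, was at 0, 0.798, 2.04 and 364 against 0, 0 and 0.110 CPM. Without KO-ITD replicate 4 and WT-ITD replicate 2 the macrophage median was -0.39 and the fibroblast median 1.18. That fit takes the tissue value from KO-ITD replicate 3 against KO-ITD replicates 1 and 2. Tissue and submission cannot be told apart in it. Endothelial genes (13 of 13 positive, median 2.30, Lyve1 at 208 CPM in KO-ITD replicate 4 and at most 5.05 CPM in the other leukemias) and megakaryocyte genes (10 of 11, median 1.09, Pf4 at 98.6 CPM there and at most 3.25 CPM in the other leukemias) had the same high library. Mgp, Lyve1, Pf4, Marco, Tyrobp, Cxcl12 and Hp passed without KO-ITD replicate 3 (adjusted p of 0.0347 to 0.0496 by edgeR), a fit in which the KO-ITD thymus side is KO-ITD replicate 4 alone.

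Markers of marrow did not mark the marrow libraries as a group. Of 13 genes of marrow stroma and bone 9 were positive (median 1.49, 0.46 without KO-ITD replicate 4 and -0.87 without both KO-ITD replicate 4 and WT-ITD replicate 2). The last of these fits takes the tissue value from the KO-ITD libraries alone, with KO-ITD replicate 3 as their only thymus library. Cxcl12 was at 3.35, 3.01, 19.96 and 95.5 against 0.306, 18.45 and 8.85 CPM (2.49, SE 0.66). Vcam1 was at 5.22, 48.7, 22.5 and 405 against 1.29, 64.8 and 19.2 CPM (3.05, SE 1.26). Both were highest in KO-ITD replicate 4. By contrast, the osteoblast genes Ibsp (2.76, 0, 0 and 0.970 against 0.245, 11.7 and 9.45 CPM) and Sp7 (0.0492, 0, 0 and 0.121 against 0, 1.27 and 0.440 CPM) were highest in the 2 KO-ITD marrow libraries and near 0 in WT-ITD replicate 2. Erythroid genes gave list levels of 4.69, 0.24, 3.45 and 3.67 against 0.79, 3.47 and 5.32, and granulocyte genes of 4.22, -0.10, 2.01 and 3.24 against -0.28, 4.51 and 2.65. The medians were 3.75 and 4.51 with Dnmt3a intact and -1.71 and -1.22 with it deleted. Without WT-ITD replicate 1 those with Dnmt3a intact were -1.16 and -0.02. WT-ITD replicate 2, the only marrow library with intact Dnmt3a, was the lowest of the 3 marrow libraries in all 12 lists of other cell types and the lowest of all 7 in 10 of them. Hba-a1 (35.2, 19.9, 159 and 128 against 7.17, 60.8 and 54.9 CPM) and Alas2 (138, 40.9, 980 and 771 against 11.8, 164 and 329 CPM), genes of late red cells, were highest in the second submission. Mast cell and basophil genes had a median of 0.28 (2.73 with Dnmt3a intact, -0.66 deleted) that turned sign in 7 of 19 alternatives, with -1.28 to 1.82 when 1 library was left out. The groups overlapped (Cpa3 at 8.91, 2.95, 299 and 116 against 1.72, 97.7 and 10.9 CPM). How far any of these cells contributes to the differences above was not tested.

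**Figure D4:**
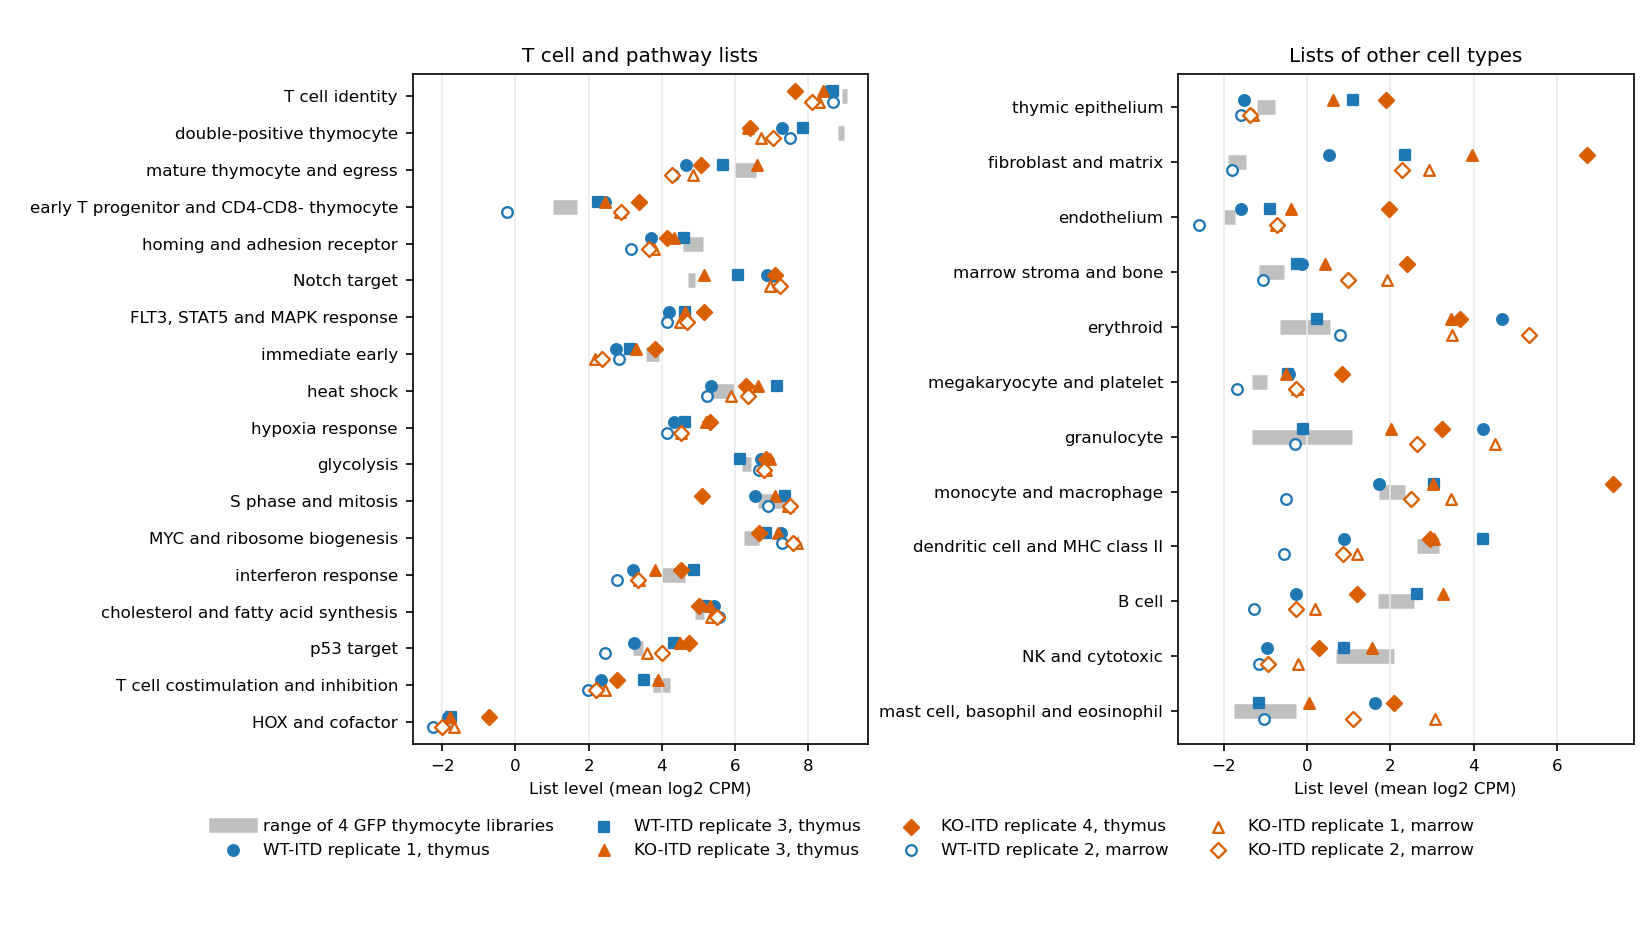
List levels (mean log2 CPM, x axis) in each leukemia for T cell and pathway lists (left) and other cell types (right); filled symbols, thymus; open, marrow; blue, WT-ITD; orange, KO-ITD; grey bars, range of the 4 GFP thymocyte libraries. WT-ITD replicate 1 sits with the marrow libraries for thymic epithelium (-1.51), and KO-ITD replicate 4 lies highest for macrophage (7.34) and fibroblast genes (6.73).

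Within a genotype, 0 of 14304 genes passed (0%) with Dnmt3a intact (2 thymus libraries against 1) or deleted (2 against 2), and 0 genes passed the test of the difference between the 2 (edgeR). At an unadjusted p below 0.05, 364 were higher and 4 lower with Dnmt3a intact, 1287 and 920 with it deleted, and 492 had an interaction. DESeq2 called 74, 914 and 41 genes. Thymus and marrow separated in the same direction within both genotypes in 1579 genes that were higher (11%) and 1392 that were lower (9.73%). Examples on the higher side were 9 of 18 p53 targets, 7 of 24 genes of mature thymocytes, 11 of 18 fibroblast, 10 of 17 MHC class II and dendritic, 9 of 16 B cell, 6 of 13 endothelial and 8 of 25 macrophage genes. Examples on the lower side were 7 of 22 MYC genes, 4 of 14 Notch targets and 9 of 19 sterol genes. Those Notch targets include Bcl11b and Tcf7, which are shared with the T cell identity list. Of 32 interferon genes 13 separated higher and 3 lower, and of 28 FLT3, STAT5 and MAPK genes 4 separated each way. The negative S phase median, in contrast, was found with Dnmt3a deleted, where tissue and submission cannot be told apart. Separation with Dnmt3a intact rests on 1 marrow library, WT-ITD replicate 2. Across all 7 libraries, thymus lay above marrow in 0 p53 targets (1 lay below), 0 fibroblast and 0 endothelial genes. It did so in 1 macrophage, 1 B cell, 2 MHC class II and dendritic and 2 mature thymocyte genes (2.58% of all genes). It lay below marrow in 0 Notch targets, 2 sterol and 6 MYC genes (2.76% of all genes).

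**Figure D5:**
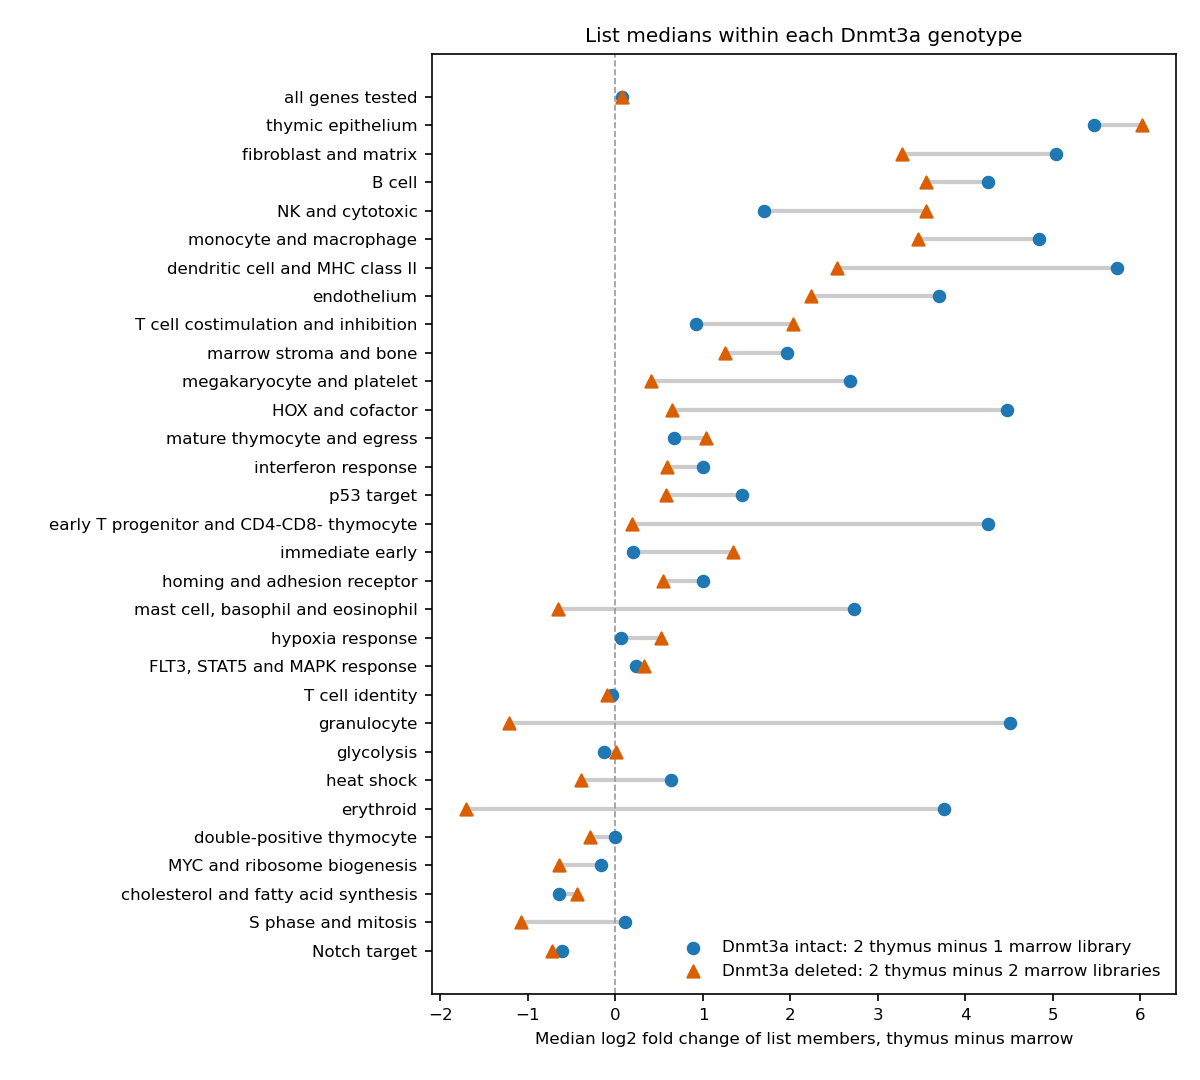
Median log2 fold change of the tested members of each list, thymus minus marrow, within the intact (circles, 2 libraries against 1) and the deleted genotype (triangles, 2 against 2). Notch and sterol lists are negative in both; erythroid medians are 3.75 and -1.71 and granulocyte medians 4.51 and -1.22.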

How the data were processed

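Gene counts of 17 libraries (19 sequenced samples, 2 being second technical runs without a column of their own) were taken from the authors' deposited table of estimated counts per gene name, on mm9. Per the submitters' processing notes TopHat2 2.0.10, Cufflinks 2.1.1 and Cuffdiff 2.1.1 or 2.2.1 were used; these notes do not say which step wrote the counts or whether strand was used. Of the values 98.12% to 98.54% per library were whole (tolerance 0.001), and all were rounded. From these counts, edgeR 4.0.16 (R 4.3.3) fitted genotype and tissue to the 7 leukemias (TMM scaling, genes kept by its expression filter over tissue and genotype groups, quasi-likelihood test, Benjamini-Hochberg adjustment over 14304 genes, threshold 0.05). Within-genotype contrasts came from a 4-group fit. The table also lists 133 gene names at more than 1 locus, whose counts were used as listed. CPM were scaled by TMM over all 17 libraries, and list levels are mean log2 CPM with a prior count of 2. Scripts were tested on simulated counts. DESeq2 1.42.0, limma 3.58.1 (voom), other scaling, filters, covariates and left-out libraries were alternatives.

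The comparison, the 31 gene lists and the rule for named genes were chosen with earlier results of these data known. The rule named 12 non-overlapping genes per direction with a mean of at least 5 CPM on the higher side, 3 members per list with the smallest p, and Dnmt3a, Flt3, Cd4, Cd8a, Cd8b1, Il2ra, Xist and Ddx3y. Ccr4, Ccr7, Ccr9, Cxcr4, Gimap3, H2-K1, Notch1, Dtx1, Hes1, Hey1, Myc, Cish, Socs2, Fos, Mki67, Irf7, Irf9, Oasl2, Foxn1, Psmb11, Krt5, Krt14, Ibsp and Sp7 fall outside it and were chosen from the lists after their values were seen. Values of some list members are not reported here.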

Additional observations from a re-analysis of the deposited data

Results flagged for a closer look

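For 31 lists and 114 named genes, the highest or lowest of the 4 thymus libraries was compared with the nearest other by Dixon's ratio of gap to range against its 95% critical value. Chance gives about 1 such case in 20 for independent items, and 11 of 145 stood apart. The items are not independent. The sex-linked list, Xist and the Y-linked genes all follow from WT-ITD replicate 3 being the Xist-expressing thymus library, so the number cannot be set against chance. All values here are log2 CPM.

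KO-ITD replicate 4 was alone at the top for 3 lists and 2 genes. The level of the early T progenitor list was 3.39 there and at most 2.46 in the other thymus libraries, that of HOX genes -0.72 against -1.77, and that of megakaryocyte and platelet genes 0.83 against -0.43. Tyrobp was at 7.25 against 4.26 and the platelet chemokine Pf4 at 6.63 against 1.76. WT-ITD replicate 1 was alone at the bottom for the egress receptor S1pr1, at -1.24 against 3.63 in the next library. WT-ITD replicate 3, the thymus library with Xist (10.27, against -2.49 in the next), lay apart in the sex-linked list (-0.28 against 3.08) and in its Y-linked members Eif2s3y (-2.39 against 6.94), Kdm5d (-2.39 against 5.28) and Ddx3y (-2.39 against 7.13).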

How the results depend on the processing

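Against 0 genes between tissues by edgeR, DESeq2 called 811 and the fit over all 17 libraries 27, and leaving out 1 library gave 0 to 76 (76 without KO-ITD replicate 3, 1 without WT-ITD replicate 3, otherwise 0). DESeq2 called 74 genes with Dnmt3a intact, 914 with it deleted and 41 for the interaction, against 0 each by edgeR. The other alternatives called 0. The cause of these differences was not tested. No paired analysis was possible because within a genotype no replicate number occurs in both tissues. For the 114 named genes, 2005 of 2125 values under alternatives kept their direction and their side of the threshold, 88 newly passed (76 of them by DESeq2) and 32, in 14 genes, turned sign. Most of these genes were chosen from the same libraries by smallest p or separation, and none passed by edgeR. The count therefore does not measure robustness. The fits of the first submission alone and with submission added take the tissue value from the WT-ITD libraries alone. They therefore repeat the contrast with Dnmt3a intact. Fits without WT-ITD replicate 2 take it from the KO-ITD libraries alone, where tissue and submission cannot be told apart. In the first submission alone and with submission added, the log2 fold changes were -0.10 and -0.11 for Cd3e (0.28 in the edgeR fit), 0.26 and 0.25 for Rag2 (-2.01), -0.20 in both for Cd4 (0.23; -0.01 without KO-ITD replicate 1), 0.15 in both for Cd8b1 (-0.61), 8.58 and 8.57 for Xist (-9.36; 8.69 without KO-ITD replicate 2), -0.60 and -0.61 for Eif2s3y (0.54; -0.13 and -0.23 without KO-ITD replicate 2 or WT-ITD replicate 1) and -1.21 in both for Ddx3y (0.25; -0.49, -0.03 and -0.27 without KO-ITD replicate 2, KO-ITD replicate 4 or WT-ITD replicate 1). Hoxb3 was at -0.61 with submission added (1.18). Without WT-ITD replicate 2 and KO-ITD replicate 4, an alternative chosen after seeing the data as was the first submission alone, Tyrobp was at -0.40, Vcam1 at -0.87, Chi3l3 at -0.38, Csf3r at -0.21 and Hdc at -1.10 (3.04, 3.05, 3.27, 2.1 and 1.25). Kdm5d (-0.30) was at 0.31 there, at 1.03 by voom and at 0.85, 0.27 and 0.14 without KO-ITD replicate 1, WT-ITD replicate 2 or WT-ITD replicate 3. Over all leave-one-out fits the values ran from -0.01 to 0.57 for Cd4, from -16.88 to 8.69 for Xist, from -0.23 to 1.38 for Eif2s3y, from -1.32 to 0.85 for Kdm5d and from -0.49 to 1.35 for Ddx3y. Total counts of 7660541 to 20015543 leave genes with 3 or fewer marrow counts with ratios known only within wide intervals.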
